A study of Mus musculus with 4 samples.

Results

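Respiratory complex I, the NADH dehydrogenase of the inner mitochondrial membrane, is described here through the 46 gene rows of the deposited table whose symbol begins with Nduf or mt-Nd, of 29595 rows in all. Of these, 39 are nuclear genes and 7 lie on the mitochondrial chromosome. RNA was sequenced from the right ventricle of adult mice on a mixed C57BL/6 background, 2 of them deficient in Ezh2 (called mutant 1 and mutant 3 after the labels) and 2 of them wild type (wild type 1 and wild type 2). Ezh2 is the histone methyltransferase of Polycomb repressive complex 2. The deleted stretch, the driver of the deletion and the cells it reached are not stated in the labels, which name no treatment. The comparison asks which ventricular transcripts differ where Ezh2 is lacking, here for the genes of a single enzyme that is built from 2 genomes.

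Complex I takes electrons from NADH, passes them along a chain of iron-sulfur clusters to ubiquinone, and pumps protons across the inner membrane. A small set of core subunits, which bacteria also have, carries out the reaction. The nuclear core subunits form the peripheral arm, where NADH and ubiquinone bind, and the mitochondrially encoded ones form the proton-pumping membrane arm. Many accessory subunits, all nuclear, surround the core and are needed for its assembly or stability. The ventricle depends on oxidative phosphorylation, and its muscle cells are dense in mitochondria.

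Mutant 1, mutant 3, wild type 1 and wild type 2 had 21707784, 23853394, 20093783 and 18177642 reads, and every set of 4 values below is in that order. All 46 rows passed the filter on low counts. Nuclear rows had between 234 and 34276 reads in a library, and mitochondrial rows between 88599 and 1253053. The row of Ezh2 had 73, 70, 77 and 67 reads, so it does not check the labels, since reads from a remaining part of the gene or from other cells count alike. The Y-linked Ddx3y had 754, 659, 2 and 2 reads, so sex followed genotype and their effects cannot be told apart. The 2 wild types also stood apart from each other, and their difference touches most nuclear values given here. Transcripts of ventricular cardiomyocytes were abundant in every library, with 10 markers summing to 56455, 62034, 52690 and 47999 CPM (the reads of a row relative to the library total, scaled between libraries by the TMM method). The sum was higher in both mutants through Myl2, and without it the sums were 39508, 43575, 41819 and 39563 CPM and overlapped. Of the 10 markers, 3 had both mutants above both wild types, 2 had both below, and 0 passed the test. Over all rows tested, 22.3% had both mutants above and 22.4% had both below. In tissue RNA, fewer cells of a type and less RNA per cell cannot be told apart.

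The sequences before 4 of the nuclear genes are shown first, since these genes had the largest separations between the groups or carry a match to a regulator known for respiratory genes. Each is 250 bases of the coding strand ending just before the annotated start, from RefSeq on GRCm38.p6. Capitals mark matches to the motifs named in the next paragraph. The window of Ndufb3 is chr1:58586147-58586396 on the plus strand. Those of Ndufa4 (chr6:11907451-11907700), Ndufs6 (chr13:73328483-73328732) and Ndufb6 (chr4:40279422-40279671) are on the minus strand.
Ndufb3: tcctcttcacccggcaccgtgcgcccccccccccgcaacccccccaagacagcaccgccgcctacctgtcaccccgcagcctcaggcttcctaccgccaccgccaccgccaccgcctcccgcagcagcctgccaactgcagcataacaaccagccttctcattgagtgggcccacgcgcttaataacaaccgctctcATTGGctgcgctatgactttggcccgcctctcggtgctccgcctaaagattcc
Ndufa4: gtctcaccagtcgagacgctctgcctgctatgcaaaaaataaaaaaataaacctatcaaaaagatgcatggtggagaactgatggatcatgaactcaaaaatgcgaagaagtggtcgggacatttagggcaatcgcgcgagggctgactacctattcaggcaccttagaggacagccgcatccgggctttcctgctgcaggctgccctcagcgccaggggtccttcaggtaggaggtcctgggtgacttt
Ndufs6: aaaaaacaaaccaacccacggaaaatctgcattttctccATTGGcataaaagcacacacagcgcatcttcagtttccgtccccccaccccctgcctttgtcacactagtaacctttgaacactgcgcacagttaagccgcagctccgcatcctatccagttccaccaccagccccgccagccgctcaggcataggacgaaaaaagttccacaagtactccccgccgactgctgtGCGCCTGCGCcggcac
Ndufb6: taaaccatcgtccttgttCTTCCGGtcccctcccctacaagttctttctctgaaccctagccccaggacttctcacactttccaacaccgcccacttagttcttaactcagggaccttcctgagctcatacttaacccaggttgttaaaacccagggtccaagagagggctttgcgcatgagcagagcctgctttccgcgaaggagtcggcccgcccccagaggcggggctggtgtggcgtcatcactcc

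Windows of this kind were found for 34 of the 39 nuclear genes, and 5 motifs were searched on both strands. The site of NRF-1 (GCGCA and GCGC with any 1 base between), a factor known to bind the promoters of many respiratory genes, was present in 6 of the 34 (17.6%: Ndufa5, Ndufa8, Ndufa11, Ndufb4, Ndufs5 and Ndufs6), against 3.74% of all 32851 windows. In Ndufs6 it lies close to the annotated start. The ETS motif (CCGGAAG), bound by the GABP factor among others, was present in 4 of the 34 (11.8%), among them Ndufb6 as its reverse complement, against 6.91% of all windows. The CCAAT box was present in 11 of the 34 (32.4%), Ndufb3 and Ndufs6 among them, and in 33.8% of all windows. The YY1 motif (AAGATGGC) and the ERR motif (TCAAGGTCA) were in 0 of the 34 windows, and in 1.56% and 0.387% of all windows. No searched motif was found before Ndufa4. The log2 fold changes of the 6 genes with an NRF-1 match ran from -0.31 for Ndufa8 to 0.70 for Ndufa5.

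No complex I row passed the test between the groups. With edgeR's quasi-likelihood test, 0 of 39 nuclear and 0 of 7 mitochondrial rows had an adjusted p under 0.05, where 21 of 16128 rows tested did (0.130%). At an unadjusted p under 0.05, 10 nuclear rows were higher and 1 was lower in the mutants, where 6.49% and 4.38% of all rows were, and 1 mitochondrial row was higher. DESeq2 called 2 nuclear rows higher, Ndufb3 and Ndufa4, where it called 0.852% of the rows it tested higher, and limma-voom called 0 of the 46 and 0.0868% of all rows. When every row with at least 1 read was tested, edgeR called Ndufb3 higher, as it did 1.13% of those rows. The fitted log2 fold change was above 0 for 28 of the 39 nuclear rows, with a median of 0.27, and for 7 of 7 mitochondrial rows, with a median of 0.73. Over all rows tested, 50.5% were above 0 and the median was 0.00. Both mutants lay above both wild types in 18 nuclear rows and below them in 5, where 22.3% and 22.4% of all rows did so. The other 16 nuclear rows overlapped. Among the mitochondrial rows, 5 had both mutants above both wild types and 2, mt-Nd4 and mt-Nd5, overlapped.

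**Figure D1:**
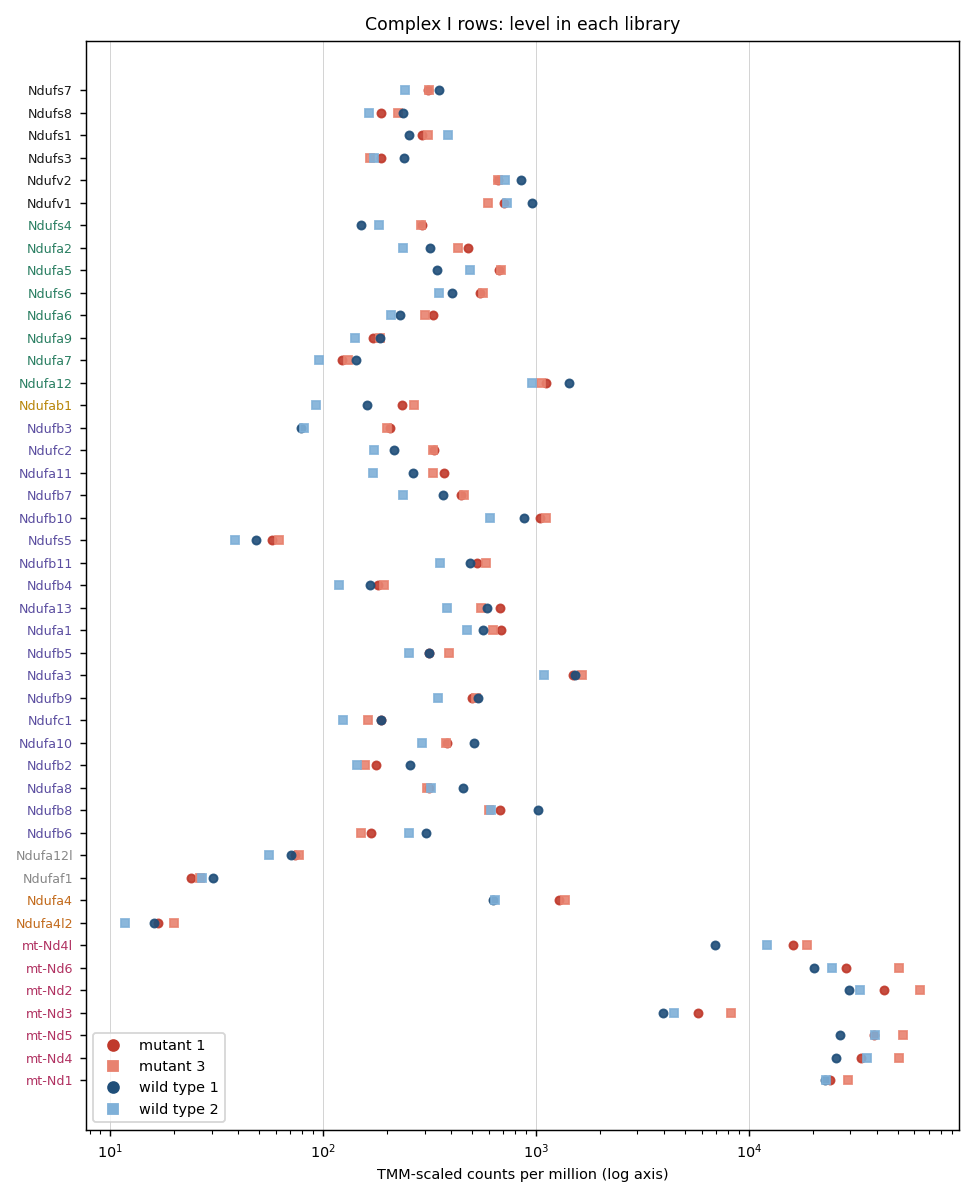
Levels of complex I rows in each of the 4 libraries, as TMM-scaled CPM on a log axis, grouped by role and coloured on the axis labels as core, accessory, assembly or mitochondrial. Ndufb3 and Ndufa4 have both mutants far above a tight pair of wild types, Ndufb6 has both mutants below, and in most other nuclear rows wild type 1 lies to the right of wild type 2.

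The 7 nuclear core subunits, which hold the flavin and the iron-sulfur clusters, were close to even between the groups. Their log2 fold changes ran from -0.38 to 0.08 with a median of -0.08, and 3 of the 7 were above 0. Both mutants lay above both wild types in none of the 7 and below in 2, Ndufv1 and Ndufv2. Over all rows tested, 22.3% had both above and 22.4% had both below. Ndufv1, which binds NADH and the flavin cofactor, had 704, 595, 954 and 734 CPM, both mutants below both wild types. The mutant mean of 650 ± 77.2 (SD, n = 2) stood against 844 ± 156, a log2 fold change of -0.38 ± 0.25 (SE, edgeR adjusted p = 0.631). Ndufv2, its iron-sulfur partner at the tip of the arm, had 666, 662, 847 and 712 CPM (-0.23 ± 0.24, adjusted p = 0.753).

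Ndufs1, which holds more iron-sulfur clusters than any other subunit, had 292, 312, 254 and 386 CPM. Its wild types enclosed the mutants (edgeR adjusted p = 0.935). A row on the other strand, AK017924, shares 14690 bases of its span and had 534 to 706 reads. Ndufs7, which lines the ubiquinone pocket, had a log2 fold change of 0.08 ± 0.25. Ndufs8, which also carries iron-sulfur clusters of that part of the arm, had 0.04 ± 0.25. Ndufs3, a further subunit there, had -0.22 ± 0.24, at 187, 167, 240 and 173 CPM. In 6 of the 7 core genes wild type 1 was above wild type 2, and without wild type 2 the values of Ndufs1, Ndufs7 and Ndufs8 changed sign.

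The accessory subunits of the peripheral arm were mostly higher in the mutants. Of 8, 7 had a log2 fold change above 0, the median was 0.55, and in 5 both mutants lay above both wild types (Ndufs4, Ndufs6, Ndufa2, Ndufa5 and Ndufa6). Over all rows tested, 50.5% were above 0 and 22.3% had both mutants above both wild types. Ndufs4, an assembly-critical subunit near the NADH-binding end whose loss causes severe complex I deficiency in mice, had 290, 289, 151 and 183 CPM. The mutants were almost equal and above both wild types, at 290 ± 0.689 against 167 ± 22.5 (0.79 ± 0.22, edgeR adjusted p = 0.279). Ndufa2, a small thioredoxin-like subunit, had 481, 428, 318 and 237 CPM (0.71 ± 0.24, adjusted p = 0.357). Its row shares 26 bases with the row of Tmco6 on the other strand, which had 60 to 104 reads against at least 4716 for Ndufa2.

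Ndufa5, at 669, 688, 343 and 491 CPM (0.70 ± 0.26), was one of the 5 nuclear rows in which wild type 2 was above wild type 1. Ndufs6 had 545, 567, 403 and 350 CPM (0.56 ± 0.23) and Ndufa6 had 329, 302, 231 and 208 CPM (0.53 ± 0.22). Ndufs4, Ndufs6, Ndufa2, Ndufa5 and Ndufa6 were the 5 rows of the class with an unadjusted p under 0.05 in edgeR. Over all rows tested, 6.49% were higher at that level. The only row of the class below 0 was Ndufa12, at 1116, 1060, 1434 and 961 CPM, in which the mutants lay between the wild types (-0.14 ± 0.28). Ndufa9, next to the ubiquinone site, and Ndufa7 also overlapped between the groups, with log2 fold changes of 0.12 and 0.08.

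Ndufab1, the mitochondrial acyl carrier protein, occurs in both arms of the complex and also serves fatty acid and lipoate synthesis. It had 235, 266, 161 and 92.4 CPM, with both mutants above both wild types. The mean was 251 ± 22.1 (SD, n = 2) against 127 ± 48.7, a 1.98-fold difference (0.98 ± 0.29, edgeR adjusted p = 0.303), and wild type 1 had 1.75 times the level of wild type 2.

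The 19 accessory subunits of the membrane arm held the row of largest positive and the row of largest negative log2 fold change among the nuclear members. In this class 14 were above 0, the median was 0.33, and both mutants lay above both wild types in 9 and below in 2. Over all rows tested, 50.5% were above 0, and both mutants lay above in 22.3% and below in 22.4%. Ndufb3, a small single-pass subunit of the distal membrane arm (chromosome 1, 58643443 to 58652792, mm9), had 4427, 3924, 1761 and 1623 reads, or 207, 199, 78.4 and 81.7 CPM. Each group was tight and the groups were far apart. The mutant mean of 203 ± 5.38 (SD, n = 2) stood against 80.0 ± 2.29, a 2.53-fold difference (1.34 ± 0.21 SE). The adjusted p was 0.0795 in edgeR and 2.38e-05 in DESeq2. The ratios in the authors' deposited table follow library totals alone, without TMM. There the ratio was 2.33 for mutant 1 and 1.88 for mutant 3 over wild type 1, and 2.28 and 1.84 over wild type 2.

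Ndufb6, another subunit of that arm (chromosome 4, 40217696 to 40226401, mm9), went the other way, with 168, 151, 304 and 252 CPM. Both mutants lay below both wild types, at 160 ± 12.1 against 278 ± 36.7 (SD, n = 2), a log2 fold change of -0.80 ± 0.22 (edgeR adjusted p = 0.279, DESeq2 0.0827). The authors' deposited ratios, again by library totals alone, were 0.488 and 0.602 for mutant 1 over wild type 1 and wild type 2. For mutant 3 they were 0.367 and 0.453. A row on the opposite strand, AK008077, shares 278 bases with Ndufb6 and had 671, 720, 717 and 535 reads. The ratio of Ndufb3 to Ndufb6 reads within a library, which needs no scaling between libraries, was 1.23, 1.32, 0.258 and 0.324. These 2 genes were picked for the ratio because their values lay farthest apart, so it is a description.

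Ndufc2 (332, 328, 215 and 173 CPM, adjusted p = 0.301) came next among the rows above 0. The lower row after Ndufb6 by p was Ndufa8, a subunit of the intermembrane space face, at 316, 308, 455 and 320 CPM. Its mutants lay below both wild types, but mutant 1 and wild type 2 differed little (-0.31 ± 0.25, adjusted p = 0.685). The X-linked members Ndufa1 and Ndufb11 were 1.26-fold and 1.32-fold as high in the mutants, with log2 fold changes of 0.33 and 0.40, inside the range of the class.

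Ndufa4 was named as a complex I subunit and was later found to belong to cytochrome c oxidase. It was the second row by p (chromosome 6, 11850373 to 11857446, mm9), with 1279, 1364, 631 and 643 CPM. The wild types were nearly equal and both mutants lay well above them, at 1322 ± 60.2 against 637 ± 7.93 (SD, n = 2). This was a 2.07-fold difference (1.05 ± 0.24 SE), with an adjusted p of 0.184 in edgeR and 0.00226 in DESeq2. Its paralog Ndufa4l2, known as a hypoxia-induced gene, had 359, 391, 360 and 234 reads. Its CPM means were 18.3 ± 2.17 and 13.9 ± 3.01 (SD, n = 2), with both mutants above both wild types by a narrow margin (0.39 ± 0.25, adjusted p = 0.603).

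The assembly factors under this name were close between the groups. Ndufa12l, now called Ndufaf2, had 74.1, 77.4, 70.7 and 56.0 CPM (0.26 ± 0.22). Ndufaf1, which helps to build the membrane arm, had 24.0, 26.5, 30.5 and 26.9 CPM (-0.18 ± 0.21), with mutant 3 and wild type 2 almost equal.

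**Figure D2:**
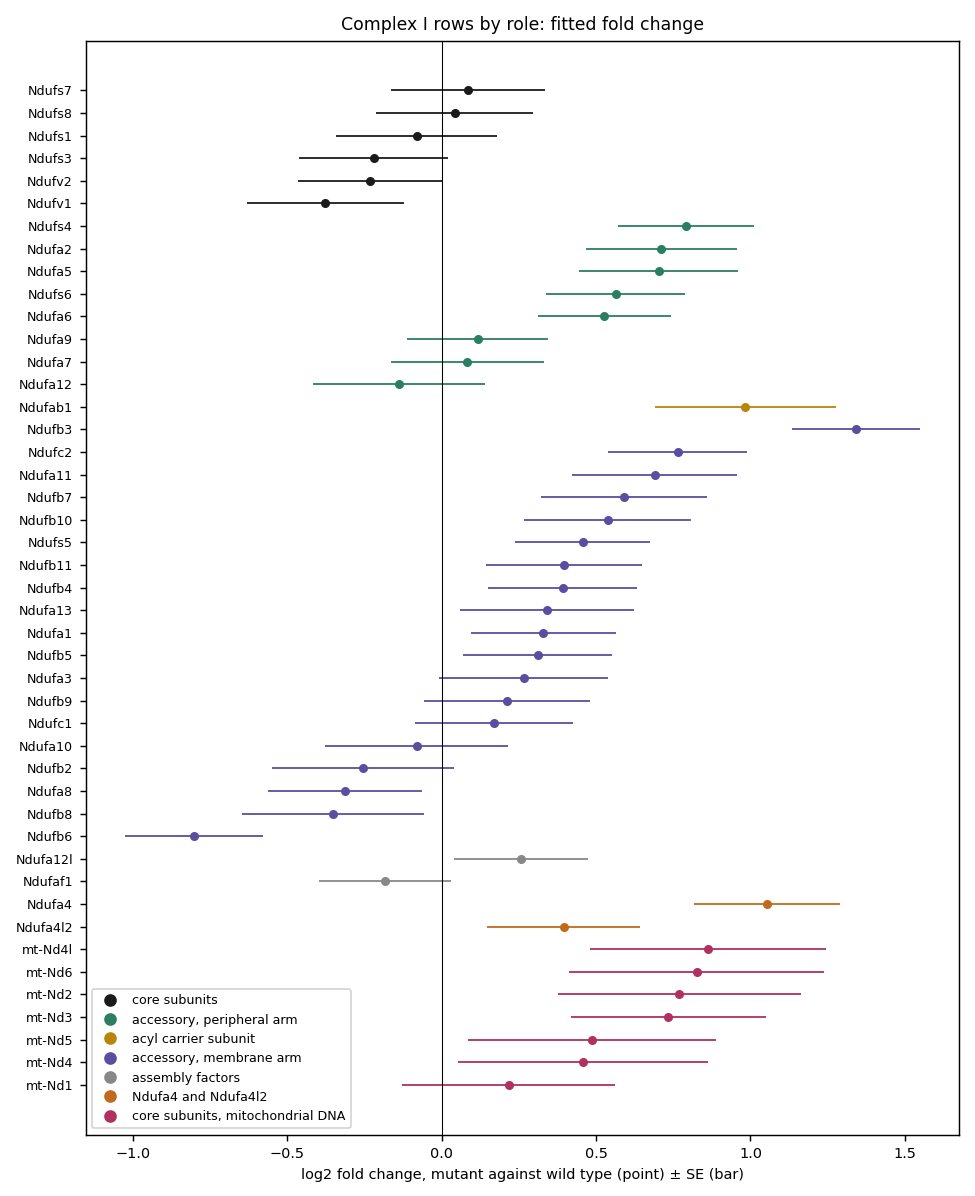
Fitted log2 fold change (mutant against wild type) of complex I rows with the SE, by role, positive values being higher in the mutants. Core nuclear subunits lie from -0.38 to 0.08, most accessory subunits lie above 0, Ndufb3 and Ndufb6 mark the ends at 1.34 and -0.80, and the mitochondrial rows have the widest bars.

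Seen as a composition within each library, the nuclear core took a smaller part of complex I reads in both mutants. It made up 16.9%, 16.2%, 21.1% and 22.5% of nuclear Nduf reads, or 16.6% ± 0.451 against 21.8% ± 1.03 (SD, n = 2). Of nuclear subunit reads without the assembly factors and without Ndufa4 and Ndufa4l2, the core took 18.4%, 17.8%, 22.1% and 24.0%. Of all nuclear Nduf reads, the whole for the parts that follow as well, Ndufa4 alone took 7.54%, 8.06%, 3.87% and 5.20%. Ndufv1 took 4.15%, 3.51%, 5.84% and 5.93%. The membrane arm accessory rows held 51.6%, 51.8%, 53.7% and 49.2%, with the mutants between the wild types. The peripheral arm accessory rows held 21.9%, 21.6%, 19.6% and 21.6%, and the groups overlapped. By its part of the nuclear reads, a row had both mutants above both wild types in 15 cases, both below in 14, and overlapped in 10. Parts of a fixed whole cannot all rise together, so these counts have no counterpart over all rows tested and are a description. With 2 libraries against 2, an exact permutation test cannot give a p below 0.333, so these parts carry no test.

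**Figure D3:**
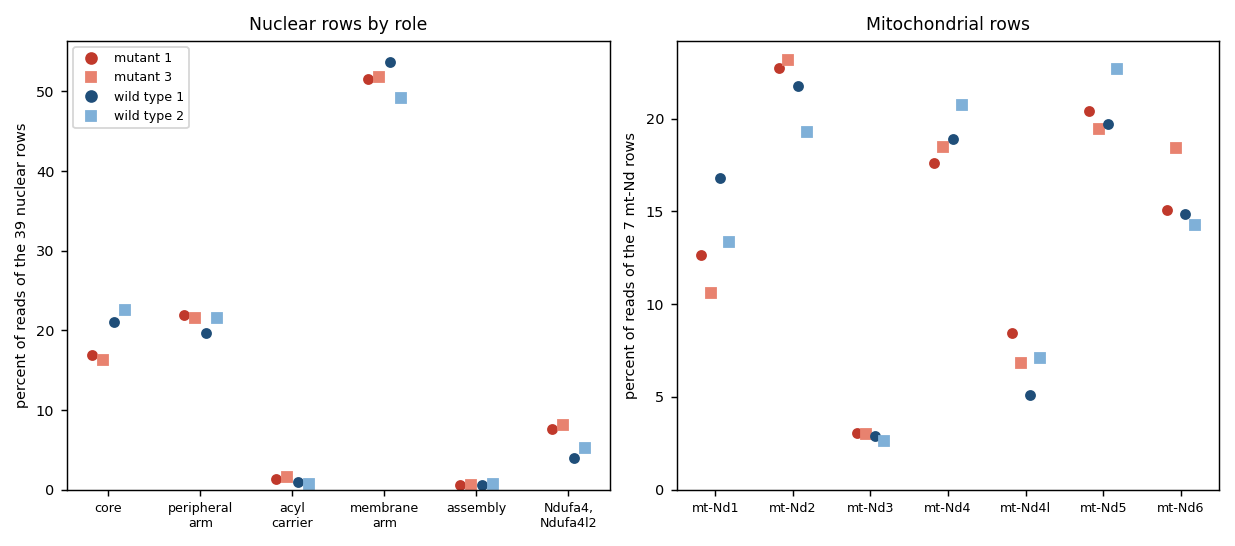
Percent of the nuclear complex I reads by role (left) and of the mt-Nd reads by gene (right) in each library. The nuclear core lies at 16.9% and 16.2% in the mutants against 21.1% and 22.5% in the wild types, and mt-Nd1 is lower in both mutants than in both wild types.

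Shorter transcripts had higher fold changes, in complex I and, mainly against wild type 2, over all nuclear genes. The 7 core transcripts are 983 to 2661 bases long, and 18 of the 28 accessory subunits have transcripts of at most 908 bases, the median of the 39. Nuclear Nduf rows of at most 908 bases (20 rows) had a median log2 fold change of 0.49, and all nuclear rows of at most that length (554) had 0.41, with 461 of them above 0. Above 908 bases the medians were 0.07 for 19 Nduf rows and -0.02 for 12434 nuclear rows. Within those longer transcripts the core had a median of -0.08 and the 10 accessory subunits had 0.24, with 7 of the 10 above 0. Spearman's rho of the fold change with length was -0.34 across the 39 members and -0.28 across 12988 nuclear rows, a description over genes of the same 4 libraries. Over all nuclear rows this rested mostly on wild type 2, with a rho of -0.44 for the mutant mean over wild type 2 and -0.078 over wild type 1. For the 39 members these were -0.36 and -0.31. The part of length in the results by role was not tested.

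The 7 mitochondrial genes are transcribed as long precursors and cut apart at tRNAs, except where reading frames overlap. Those overlaps are shown here because reads in them can be assigned to either row. Whether counting used the strand was not given in the sources used here. On mm9, mt-Nd4l ends 7 bases into mt-Nd4 (mitochondrial positions 10167 to 10173), and mt-Nd5 and mt-Nd6, on opposite strands, share 14 bases (13552 to 13565). Capitals mark the shared bases, in the first pair the 3′ end of mt-Nd4l and the 5′ end of mt-Nd4, and in the second pair the 3′ ends of both genes.
mt-Nd4l: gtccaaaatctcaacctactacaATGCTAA
mt-Nd4: ATGCTAAaaattattcttccctcactaatg
mt-Nd5: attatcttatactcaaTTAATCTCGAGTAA
mt-Nd6: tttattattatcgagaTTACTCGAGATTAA

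As a part of all reads, mitochondrial complex I reads were numerous and differed as much within a group as between groups. The mt-Nd rows took 18.8%, 22.7%, 15.2% and 18.8% of the reads. The widest 95% Clopper-Pearson interval, which covers counting error only, was 0.0359 percentage points. Mutant 1 and wild type 2 thus had almost the same part of the unscaled reads. By TMM-scaled CPM, mutant 3 was above mutant 1, and wild type 2 above wild type 1, in 7 of 7 rows. On that scale both mutants lay above both wild types in 5 of the 7, where 22.3% of all rows did so. The fitted log2 fold changes ran from 0.22 to 0.86. The 6 mitochondrial rows for proteins of other complexes had a median of 0.60, 5 of them above 0.

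The mt-Nd4l row, for a small proton-pumping subunit (mitochondrial positions 9877 to 10173), had 16075, 18784, 6950 and 12215 CPM. Both mutants were above both wild types, but wild type 1 was at 0.569 times wild type 2, and the log2 fold change was 0.86 ± 0.38 (SE, edgeR adjusted p = 0.469). The mt-Nd3 row had 5775, 8233, 3945 and 4475 CPM (0.73 ± 0.32, adjusted p = 0.455), and was the single mitochondrial row with an unadjusted p under 0.05. The mt-Nd2 row had 43363, 63542, 29531 and 33167 CPM (0.77 ± 0.39, adjusted p = 0.530). The mt-Nd6 gene is the only protein gene encoded on the light strand, and its row had 28773, 50552, 20197 and 24551 CPM (0.83 ± 0.41, adjusted p = 0.523). In these 3 rows the gap between the mutants was wider than the gap between the wild types.

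The mt-Nd5 row, for one of the large antiporter-like subunits, had 38903, 53258, 26773 and 39008 CPM (0.49 ± 0.40), and wild type 2 was level with mutant 1. The mt-Nd4 row, for another of them, had 33587, 50720, 25667 and 35743 CPM (0.46 ± 0.40), with wild type 2 above mutant 1. The mt-Nd1 row, for the subunit that joins the ubiquinone site to the membrane arm, was the most even, at 24072, 29138, 22795 and 23003 CPM (0.22 ± 0.35, adjusted p = 0.856).

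Per base of transcript, mt-Nd6, mt-Nd2 and mt-Nd4l had the highest coverage in the mutants, and mt-Nd3 the lowest of the 7 in all 4 libraries. The mt-Nd6 row had 1188, 1921, 874 and 940 reads per base, and mt-Nd3 had 356, 467, 255 and 256. Because the libraries were treated with a nuclease that digests abundant re-annealed molecules, reads per base do not measure RNA between genes, and reads of mt-Nd6 may include reads of the opposite strand. Within the mt-Nd reads, mt-Nd1 took 12.6%, 10.6%, 16.8% and 13.4%, and mt-Nd4 took 17.6%, 18.5%, 18.9% and 20.8%. Both genes had lower parts in both mutants. The opposite order was seen for mt-Nd2, mt-Nd3 and mt-Nd6, and mt-Nd4l and mt-Nd5 overlapped.

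The balance of reads between the 2 genomes did not separate the groups. Because of the same nuclease treatment, this balance of reads does not measure the balance of RNA. Reads of mt-Nd rows over reads of nuclear Nduf rows were 11.2, 16.2, 8.32 and 13.9, with means of 13.7 ± 3.51 and 11.1 ± 3.96 (SD, n = 2). The ratio of the means was 1.23, and each group held values inside the range of the other. Nuclear Nduf rows took 2.81%, 2.66%, 2.79% and 2.30% of the reads outside the mitochondrial chromosome, with wild type 2 alone low. Of all reads on the mitochondrial chromosome, mt-Nd rows took 46.7%, 47.9%, 43.8% and 45.7%, a little more in both mutants than in both wild types.

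Much of the spread in the nuclear rows lay between the wild types. Wild type 1 was above wild type 2 in 34 of 39 nuclear rows, with a median ratio of 1.39, and in 0 of 7 mitochondrial rows, where the median was 0.823. Over all rows tested the median ratio was 1.05. The mutants were more alike in the nuclear rows, with mutant 1 above mutant 3 in 19 of 39 and a median ratio of 0.993. The wild type ratio went along with the GC content of the transcript, with a Spearman's rho of 0.45 over the 39 members and 0.55 over 12988 nuclear rows (Pearson's r 0.43 and 0.55), a description over genes. Ndufb3 and Ndufa4, of GC content 45.0% and 44.1%, had wild type ratios of 0.960 and 0.983. Ndufs4, Ndufa5 and Ndufs1, the other nuclear rows with wild type 2 above wild type 1, had 0.826, 0.700 and 0.658.

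**Figure D4:**
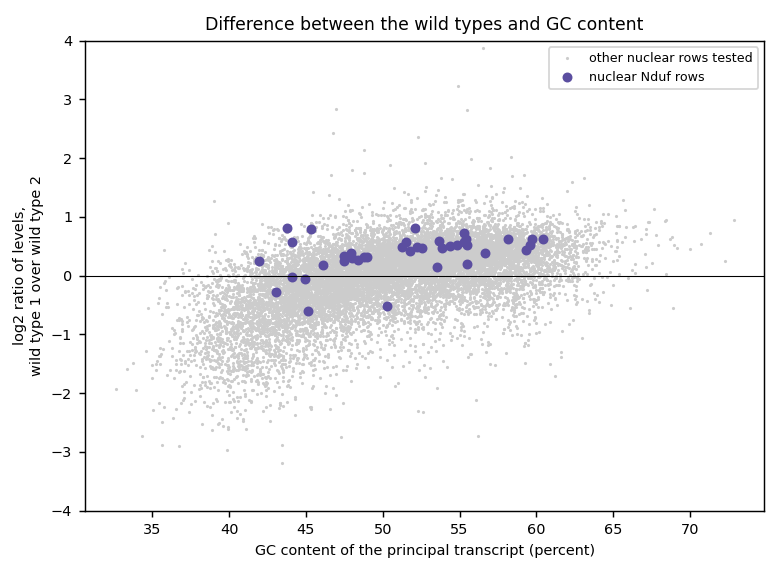
Log2 ratio of wild type 1 to wild type 2 against the GC content of the principal transcript in percent, for nuclear Nduf rows (large points) and all other nuclear rows tested (small points). Most Nduf rows lie above 0, and the ratio is higher in rows of higher GC content.

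Which complex I rows passed the test depended on which wild type was left out. Without wild type 1, 16 nuclear rows were higher in the mutants and 1, Ndufb6, was lower, where 7.87% and 4.33% of all rows were. Without wild type 2, 7 were higher and 5 were lower, where 13.2% and 8.83% of all rows were. The 7 were Ndufa2, Ndufa4, Ndufa5, Ndufab1, Ndufb3, Ndufc2 and Ndufs4, and the 5 were Ndufa8, Ndufb2, Ndufb6, Ndufb8 and Ndufv1. Ndufa2, Ndufa4, Ndufab1, Ndufb3, Ndufc2 and Ndufs4 were higher, and Ndufb6 lower, in both of these analyses, which share both mutants and each rest on a single wild type. Without mutant 1 and without mutant 3, 0 nuclear rows passed, where 0.381% and 0.653% of all rows did. The nuclear median was 0.47 without wild type 1 and 0.09 without wild type 2. For the mitochondrial rows the median was 1.00 without mutant 1 and 0.40 without mutant 3, and mt-Nd4l alone passed, without wild type 2.

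**Figure D5:**
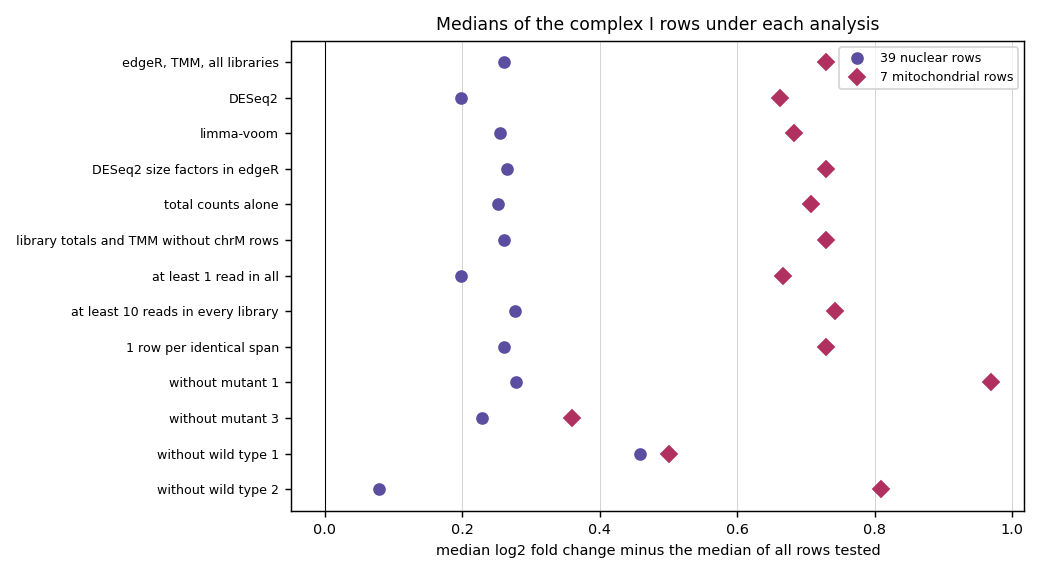
Median log2 fold change of the 39 nuclear and the 7 mitochondrial rows under each analysis, minus the median of all rows tested in that analysis. The nuclear median moves most with the choice of wild type and the mitochondrial median with the choice of mutant.

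Other genes of complex I biogenesis and mitochondrial gene expression were read from lists that hold 67 names, of which 58 had a tested row. Some of the names without a row are synonyms of genes measured under another name, as Ndufaf2 is of the member Ndufa12l. By edgeR 0 of the 58 passed, 3 were higher and 2 were lower at an unadjusted p under 0.05 (6.49% and 4.38% of all rows were, so the lists held no more than that share), and their median log2 fold change was 0.00. The row of smallest p was Slirp, whose product pairs with Lrpprc to stabilise mitochondrial mRNAs, with 2299, 2216, 797 and 874 reads. Both mutants lay well above both wild types, at 110 ± 3.60 against 39.7 ± 6.00 CPM (1.47 ± 0.22, adjusted p = 0.0751 in edgeR), and DESeq2 called it. Lrpprc itself was even, at a log2 fold change of -0.08 ± 0.21. Next by p among the RNA factors was Fastkd1, a protein of mitochondrial RNA processing, with 171, 180, 264 and 259 reads (-0.53 ± 0.24, adjusted p = 0.473).

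Among 11 other assembly factors, Lyrm2, a small protein of the LYR family, had 778, 650, 348 and 371 reads (1.02 ± 0.22, adjusted p = 0.175 in edgeR and 0.0480 in DESeq2). The row 3110001D03Rik, now Dmac1, had 1166, 1137, 793 and 459 reads (0.94 ± 0.26). Acad9, an assembly factor related to acyl-CoA dehydrogenases, had 347, 292, 496 and 463 reads, with both mutants lower (-0.55 ± 0.21, adjusted p = 0.414). Of 11 nuclear regulators, 8 were below 0. Ppargc1b, a coactivator of mitochondrial gene programmes, had 402, 284, 728 and 624 reads (-0.94 ± 0.23, adjusted p = 0.225). Gabpb1, a subunit of the GABP factor, came next with 144, 121, 186 and 190 reads (-0.47 ± 0.26, adjusted p = 0.554). Ppargc1a, the better known relative of Ppargc1b, had -0.28 ± 0.23, Nrf1 had 0.37 ± 0.27, Gabpa had 0.41 ± 0.29 and Esrra had -0.31 ± 0.22. Across 9 genes of mitochondrial DNA maintenance, 0 had an unadjusted p under 0.05. The 2 of smallest p were Polg2, the accessory subunit of the mitochondrial DNA polymerase, with 36, 25, 13 and 18 reads (adjusted p = 0.530), and Ssbp1, the single-stranded DNA binding protein, with 259, 221, 82 and 197 reads (adjusted p = 0.553).

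Some complex I genes stand in the table under older names and so fall outside the 46. The accessory subunit Ndufv3, listed as 1500032D16Rik, had 1008, 1060, 937 and 720 CPM (0.32 ± 0.25, adjusted p = 0.683). The 2 rows of smallest p were the assembly factors Ndufaf3 (4733401H18Rik) with 758, 685, 686 and 372 reads (0.51 ± 0.27, adjusted p = 0.544) and Ndufaf5 (2310003L22Rik) with 393, 345, 371 and 249 reads (0.30 ± 0.23, adjusted p = 0.677). Of the 6 rows found this way, 5 were above 0, with a median of 0.27.

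Markers of other cells were read beside these results. All 5 tested atrial markers had both mutants above both wild types, and 1 of them was called, Nppa, at 3312, 2972, 375 and 173 CPM (edgeR adjusted p = 0.0316). The atrial markers without Nppa summed to 154, 127, 62.7 and 9.26 CPM, and Bmp10 was at 0 in 3 of the 4 libraries. Fast fibre markers without Ckm summed to 320, 50.0, 29.7 and 32.2 CPM, highest in mutant 1. Of these, Myh4 had 44.4, 33.2, 9.97 and 12.0 CPM, high in both mutants (adjusted p = 0.0638), and 2 of the 10 markers had both mutants above both wild types. Ndufb3 had 207 CPM in mutant 1 and 199 in mutant 3, and Ndufa4 had 1279 and 1364. The relation of these 2 rows to the markers was not tested. Markers of fibroblasts (920, 1061, 1076 and 893), endothelium (491, 622, 593 and 535), macrophages (73.6, 59.0, 74.1 and 59.6) and smooth muscle (338, 378, 329 and 360) overlapped between the groups in sum. Single markers did not all overlap. Both mutants lay above both wild types in 3 of 8 fibroblast and 2 of 7 endothelial markers. The same held for 1 of 5 macrophage and 3 of 6 smooth muscle markers, and both lay below in 1 of each class. Over all rows tested, 22.3% had both mutants above both wild types and 22.4% had both below. Brown fat markers summed to 29.5, 37.0, 34.6 and 23.2 CPM, nearly all of it Cidea, and Ucp1 was at 0 in 3 of the 4 libraries. The part of atrial or other cells in the complex I values was not tested. Nuclear copies of mitochondrial DNA and 5 annotated Nduf pseudogenes (named for Ndufa11, Ndufa12, Ndufab1, Ndufs5 and Ndufs6) could share reads with their rows, so the values of those genes are less certain.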

How the data were processed

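RNA of 4 right ventricles was measured, and groups follow the sample titles. Per the labels' protocols, libraries came from polyadenylated RNA and were digested, after partial re-annealing, with a duplex-specific nuclease, so reads of abundant transcripts are under-represented and their differences may be compressed. TopHat 1.2.0, Cufflinks and the mouse build mm9 are named per the submitters' processing notes. For counting, the rule, use of strand and annotation were not given in the sources used here. Per the file headers, the deposited table holds an unnormalised read count per gene row and library, the input here. It also holds the authors' CPM values and p-values, which were not used, and the authors' ratio between single libraries.

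Counts of the whole table were tested with edgeR 4.0.16 (R 4.3.3): filterByExpr with the group (16128 rows kept), TMM scaling, quasi-likelihood test, no covariate, Benjamini-Hochberg adjustment over all rows, and a call at 0.05. The script was tested on simulated data. All tests are two-sided. Levels are TMM-scaled CPM, as mean ± SD over 2 libraries. The design text speaks of separate hearts, so p-values measure the spread between these hearts. Alternatives were DESeq2 1.42.0, limma-voom (limma 3.58.1), other scalings, filters and thresholds, 1 row per span, and leaving out each library. Where this left 1 library in a group, its spread was taken from the other group.

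Roles, lists and members were chosen with earlier results of these data known. The text names every mt-Nd row, the nuclear core subunits, Ndufa4, Ndufa4l2, rows called, the 2 members of smallest p per direction in each role class, and the 2 of smallest p in each list. A nuclear core row is not reported here singly and stays in the counts, sums and medians. Further names, and the comparisons of length and GC content, were chosen after the values were seen. Lengths and GC content are those of the longest principal transcript in GENCODE M21, found for 80.6% of tested rows and for 39 of 39 nuclear members. Older names were matched through the synonyms of the RefSeq gene table (GRCm38.p6). Row positions are counted from 1 on mm9.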

Additional observations from a re-analysis of the deposited data

How the results depend on the processing

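No paired analysis was possible because the groups share only 1 replicate number. Of the nuclear complex I rows, 0 passed by edgeR with all libraries, 2 passed by DESeq2, 1 (Ndufb3) with every row of at least 1 read tested, where 1.13% of rows were called higher, and 1 (Ndufb3) at an adjusted p under 0.10. Leaving out 1 library gave 0 to 17 nuclear calls, 17 without wild type 1 and 12 without wild type 2, and 0 to 1 mitochondrial calls. Of 58 rows in the lists of assembly and mitochondrial expression, 2 passed by DESeq2 (1.09% of all its rows), 2 with at least 1 read (1.44%) and 1 at an adjusted p under 0.10. The share of all rows under 0.10 is not given here, so neither count at that threshold can be set against it. Leaving out a library gave 1 to 18 list calls, with 1 without mutant 1 and 1 without mutant 3 (0.381% and 0.653% of all rows), 8 without wild type 1 (13.8%, against 12.2% of all rows) and 18 without wild type 2 (31.0%, against 22.0%). The nuclear median was -0.028 when scaled by total counts alone, a scaling that moved the median of all rows by -0.28. Relative to all rows it was 0.25 there and 0.26 with TMM. Under total counts the log2 fold change was -0.11 for Ndufc1, -0.080 for Ndufb9, -0.028 for Ndufa3, -0.033 for Ndufa12l, -0.20 for Ndufs7, -0.21 for Ndufa7, -0.18 for Ndufa9, -0.26 for Ndufs8 and -0.081 for mt-Nd1, against values above 0 with TMM. Leaving out a library also changed the sign of some small log2 fold changes, with the lowest value without wild type 2 and the highest without wild type 1. These ranged from -0.097 to 0.49 for Ndufc1, -0.070 to 0.56 for Ndufb9, -0.16 to 0.37 for Ndufs7, -0.18 to 0.40 for Ndufa7, -0.070 to 0.33 for Ndufa9 and -0.20 to 0.33 for Ndufs8, which was also -0.048 without mutant 3. The ranges were -0.43 to 0.38 for Ndufa10, -0.61 to 0.22 for Ndufb2, -0.40 to 0.18 for Ndufa12, -0.68 to 0.059 for Ndufb8 and -0.44 to 0.038 for Ndufs3. Ndufs1 had its lowest value, -0.35, without wild type 1 and its highest, 0.25, without wild type 2. The cause was not tested. Of the other comparisons of a single row with an alternative, 485 kept direction and side of the threshold and 33 kept the direction and passed. The adjusted p of Ndufb3 ran from 2.38e-05 to 0.157 over the alternatives, that of Ndufa4 from 0.00219 to 0.769 and that of Ndufb6 from 0.000926 to 1. Precision is limited by having 2 hearts per group.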
